A study of Mus musculus with 12 samples.

Results

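The genes of major histocompatibility complex (MHC) class II antigen presentation, together with Cd74, were examined in RNA sequencing libraries of oligodendrocyte precursor cells (OPCs) and neurons from mouse cortex. The 7 genes were chosen by name: Cd74, H2-Aa, H2-Ab1, H2-Eb1, H2-DMa, H2-DMb1 and Ciita. All 7 were found among the 30165 genes of the OPC table and among the 17918 genes of the neuron table, and all 7 had a mean normalized count of at least 10 in both, the minimum for testing. The dKO mice carried NG2-CreERT2 with floxed alleles of Cav1.2 (Cacna1c) and Cav1.3 (Cacna1d), so recombination was driven by the NG2 promoter, which is active in OPCs and in pericytes. The ctl mice are labelled WT, and their Cre and floxed alleles are not given in the sources used here. Tamoxifen was given at 100 mg/kg on postnatal days 7 and 8. The age at collection of these mice and the sex of each pool are not given in the sources used here. The paper states in general that it pooled data of males and females. Each of the 12 libraries held cells of 2 mice, with 3 libraries for each genotype and cell type. OPCs were captured on magnetic beads against CD140, NG2 and O4, and neurons were what remained once cells bound by ACSA-2, CD31, CD11b or O4 beads had been taken out.

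MHC class II molecules are pairs of an alpha and a beta chain that show peptides from endosomes to CD4+ T cells. New pairs bind the invariant chain Cd74, which blocks the groove and guides them to endosomes. There, proteases trim Cd74 to a short fragment, and the H2-DM molecule removes that fragment so that a peptide can bind. The coactivator Ciita switches the genes on, together with factors that bind the X and Y boxes upstream of each start, and interferon-gamma is the classical inducer. In the brain these genes are known mainly from macrophages of the borders, dendritic cells and activated microglia, and they have also been described in oligodendrocyte lineage cells of inflamed tissue.

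X and Y boxes upstream of the start are known from class II genes, and their letters were searched for here. Of the 7 genes, 4 had promoters in the RefSeq table of GRCm38.p6 used here: H2-Aa, H2-Eb1, H2-DMa and H2-DMb1. In the 250 bases before and 50 bases after each start, 4 forms of the X box were searched on both strands, which are AGCAAC and the form AGTAAC, and likewise GGCAAC and the form GGTAAC. Each had to be followed by the Y box letters ATTGG starting 28 to 40 bases further on. The arrangement was present in 174 of 32851 promoters, or 0.53%. Among the 4 genes it was present in H2-Aa, H2-Eb1 and H2-DMb1, and at neither of the 2 listed starts of H2-DMa. ATTGG alone was present in 37.4% of all promoters, and at 1 of the 2 H2-DMa starts. The stretches that hold the arrangement are shown 5′ to 3′ on the strand of the gene, with the X box and Y box letters in capitals. On GRCm38.p6 they lie at chr17:34287827-34287925 on the minus strand for H2-Aa, at chr17:34305755-34305852 on the plus strand for H2-Eb1 and at chr17:34153076-34153174 on the plus strand for H2-DMb1.
H2-Aa: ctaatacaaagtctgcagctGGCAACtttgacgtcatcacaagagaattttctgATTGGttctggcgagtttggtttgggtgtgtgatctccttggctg
H2-Eb1: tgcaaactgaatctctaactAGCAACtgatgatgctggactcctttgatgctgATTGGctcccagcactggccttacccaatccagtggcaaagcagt
H2-DMb1: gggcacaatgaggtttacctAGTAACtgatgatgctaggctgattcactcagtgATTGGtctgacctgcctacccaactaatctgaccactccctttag
The Y box letters began 34 bases after the X box letters in H2-Aa and H2-DMb1, and 33 bases after them in H2-Eb1. The X box letters began 82, 92 and 95 bases before the start in H2-Aa, H2-Eb1 and H2-DMb1. The letters describe the sequence and do not show that a factor was bound there. The same arrangement was present at 3 other class II genes of the table, H2-Oa, H2-Ob and H2-Eb2, and absent at H2-DMb2.

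Several properties of whole libraries bear on the values below. The summed counts were 14935963 to 19812274 in OPC libraries and 15052898 to 16344611 in neuron libraries. In the OPC libraries, 6 OPC markers summed to 266 to 818 CPM (counts scaled to the library size, with edgeR's TMM factors) and 6 oligodendrocyte markers to 45420 to 79620 CPM. In the neuron libraries, 7 neuron markers summed to 468 to 1171 CPM and 6 endothelial markers to 6238 to 14240 CPM. The oligodendrocyte sums were thus above the OPC sums, and the endothelial sums above the neuron sums, in every library. Such sums do not give shares of cells. Below, OPCs and neurons name the libraries by their labels, and the values are not levels within a pure cell type. OPC dKO replicate 2 stood apart, with 778 CPM of Xist and 0 CPM over 4 Y-linked genes, against at most 1.16 CPM of Xist and 236 to 289 CPM of the Y-linked genes in the other OPC libraries. This is the pattern of female mice in that library and of male mice in the other OPC libraries. Y-linked genes reached 386 and 338 CPM in neuron ctl replicate 1 and dKO replicate 1, and at most 3.7 CPM in the other 4 neuron libraries. Male mice were thus in those pools, and no Xist value was available for neurons. OPC dKO replicate 2 and neuron ctl replicate 1 were each the only library with its pattern in its group. A difference by sex cannot be told apart from other differences of these libraries. Of the targeted genes in OPCs, Cacna1c was at 21.3, 23.5 and 25.1 CPM in ctl and 14.4, 19.3 and 17.9 CPM in dKO libraries, with a log2 fold change of -0.44 ± 0.15 (SE; edgeR quasi-likelihood test, adjusted p = 0.349). For Cacna1d the log2 fold change was -0.55 ± 0.31 (SE, adjusted p = 0.531 by edgeR), and the groups overlapped. In bulk libraries, fewer cells of a type cannot be told apart from less RNA per cell.

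In OPCs, the mean levels of all 7 class II genes were higher in dKO than in ctl libraries. Cd74 and the classical chains H2-Aa, H2-Ab1 and H2-Eb1 were 4.12 to 5.55 times as high on average, and H2-DMa 2.11 times, with every dKO library above every ctl library. H2-DMb1 and Ciita had overlapping groups. Of the 7 genes, 5 had an unadjusted p under 0.05, all higher in dKO, where 6.27% of the 17364 genes tested were called this way. The median log2 fold change of all 7 genes was 2.04, against 0.0055 over all genes tested. Groups did not overlap, with dKO above ctl, for 5 of the 7 genes and for 7.41% of all genes tested. After Benjamini-Hochberg adjustment over all genes tested, 0 of the 7 genes passed at 0.05, and 0.00576% of all genes did. The call depended on the fit. With DESeq2, Cd74 and the 3 classical chains passed, with adjusted p between 7.92e-06 and 3.04e-05, where 1.07% of all genes passed as higher in dKO. Without OPC dKO replicate 2, the same 4 genes passed in edgeR, with adjusted p between 0.0321 and 0.0493, where 1.05% of all genes passed as higher in dKO.

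Cd74 encodes the invariant chain (ENSMUSG00000024610, chromosome 18, 60936920 to 60945724 on the plus strand as deposited). Intervals of genes given here and below are those of the OPC table, which differ from the GRCm38 positions of the same genes and cannot be compared with the promoter positions above. It was counted with 110, 102 and 162 reads in the 3 ctl OPC libraries and with 392, 467 and 984 reads in the 3 dKO libraries. On the CPM scale these were 5.51, 6.95 and 9.68 in ctl and 21.9, 24.2 and 60.2 in dKO libraries, or 7.38 ± 2.12 (SD, n = 3) and 35.5 ± 21.5 (SD, n = 3). Every dKO library was above every ctl library, and dKO replicate 3 was the highest. The log2 fold change was 2.27 ± 0.41 (SE, adjusted p = 0.234 by edgeR), with an unadjusted edgeR p of 0.00045. It was 2.48 ± 0.40 (SE, adjusted p = 0.0321 by edgeR) without dKO replicate 2 and 1.64 without dKO replicate 3.

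H2-Aa encodes the alpha chain of the classical molecule I-A (ENSMUSG00000036594, chromosome 17, 34501718 to 34506797 on the minus strand as deposited). Its level was 2.55, 2.52 and 2.93 CPM in ctl and 7.49, 10.7 and 21.2 CPM in dKO libraries. The ctl libraries lay close together, and the dKO libraries spread over a wider range above them. The log2 fold change was 2.30 ± 0.38 (SE, adjusted p = 0.221 by edgeR).

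H2-Ab1 encodes the beta chain that pairs with H2-Aa (ENSMUSG00000073421, chromosome 17, 34476663 to 34488393 on the plus strand as deposited). Its level was 3.20, 3.48 and 2.99 CPM in ctl and 8.39, 11.2 and 20.3 CPM in dKO libraries. The dKO libraries followed the same order as for H2-Aa, with replicate 1 lowest and replicate 3 highest. The log2 fold change was 2.04 ± 0.33 (SE, adjusted p = 0.221 by edgeR).

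H2-Eb1, the beta chain of the classical molecule I-E (ENSMUSG00000060586, chromosome 17, 34524841 to 34535648 on the plus strand as deposited), had the largest fold change of the 7 genes. It was at 2.95, 3.27 and 2.15 CPM in ctl and 7.33, 12.5 and 26.7 CPM in dKO libraries, again without overlap. The log2 fold change was 2.47 ± 0.46 (SE, adjusted p = 0.246 by edgeR). Its lead over H2-Aa and Cd74 was smaller than this SE. Without ctl replicate 3, H2-Eb1 was at 2.31, below Cd74 at 2.5 and H2-Aa at 2.36. Without dKO replicate 3, the log2 fold changes of the 3 classical chains were between 1.59 and 1.81.

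The H2-DM chains, which exchange peptides on class II molecules, differed less between the groups. H2-DMa (ENSMUSG00000037649, chromosome 17, 34338515 to 34358075 on the plus strand as deposited) was at 2.95, 1.43 and 2.27 CPM in ctl and 5.54, 3.53 and 4.96 CPM in dKO libraries. Its groups did not overlap, and its log2 fold change was 1.06 ± 0.33 (SE, adjusted p = 0.320 by edgeR). H2-DMb1 (ENSMUSG00000079547, chromosome 17, 34372046 to 34379204 on the plus strand as deposited) was at 4.30, 1.91 and 3.35 CPM in ctl and 4.64, 3.95 and 7.22 CPM in dKO libraries. Here ctl replicate 1 was above dKO replicate 2, and the log2 fold change was 0.71 ± 0.36 (SE, adjusted p = 0.492 by edgeR). H2-DMb2, a close copy of H2-DMb1, had 0 to 9 reads per OPC library, and reads shared by such copies could have been assigned to either. Without dKO replicate 2, the log2 fold change was 1.23 for H2-DMa and 0.88 for H2-DMb1, which then had an unadjusted edgeR p of 0.0434. The H2-DMa interval overlaps Brd2 on the opposite strand, with 3829 to 5159 reads per library, and the library kit does not keep strand.

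Ciita, the coactivator (ENSMUSG00000022504, chromosome 16, 10297923 to 10346282 on the plus strand as deposited), was the lowest of the 7 genes. It had 13, 12 and 15 reads in ctl and 14, 26 and 30 reads in dKO OPC libraries. The read number of dKO replicate 1 lay within the ctl range, and the log2 fold change was 0.74 ± 0.43 (SE, adjusted p = 0.543 by edgeR). Dexi lies on the opposite strand of the Ciita interval, with 200 to 347 reads per library.

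**Figure D1:**
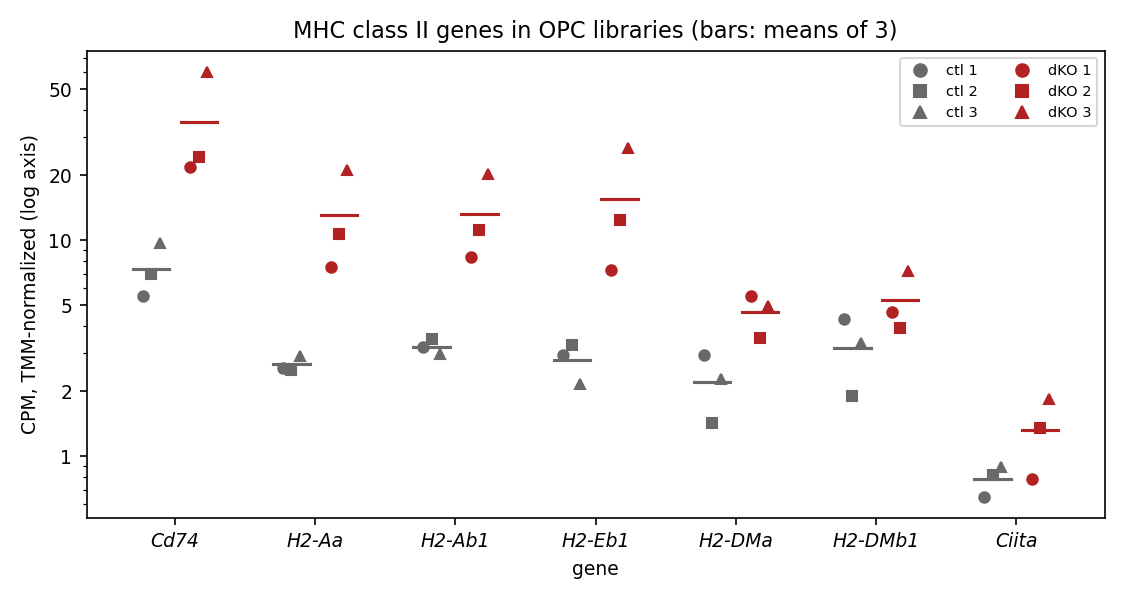
CPM (log axis) of the 7 class II genes in the 6 OPC libraries, with ctl in grey, dKO in red, the symbol giving the replicate and the bar the mean of 3. The dKO libraries of Cd74 sit between 21.9 and 60.2 CPM, above all ctl libraries at 5.51 to 9.68 CPM, while the groups of H2-DMb1 and Ciita overlap.

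Levels of different genes were compared per length, as the FPKM values deposited by the authors. In ctl OPCs, Cd74 had the highest FPKM, with a median of 4.15 and a range of 3.23 to 5.73, above every library of the other genes. H2-DMb1, H2-Eb1 and H2-Ab1 followed with median FPKM of 1.98, 1.49 and 1.23 and overlapping ranges, so their order does not exceed their spread. H2-Aa had a median FPKM of 0.665 and H2-DMa of 0.655, again with overlapping ranges, and Ciita was lowest with 0.086. In dKO OPCs the median FPKM was 14.3 for Cd74, 6.35 for H2-Eb1, 4.30 for H2-Ab1 and 2.80 for H2-Aa, with each range overlapping the next. H2-DMb1 followed with a median FPKM of 2.77, H2-DMa with 1.42 and Ciita with 0.14. These FPKM values rest on the gene length given in the table, which is 3798 bases for H2-Aa, whereas the single H2-Aa transcript of the neuron table matches a GENCODE M21 transcript of 1128 bases.

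Whether Cd74 moved with the class II chains was examined as its log2 ratio within each library. The log2 ratio of Cd74 to the mean of H2-Aa, H2-Ab1 and H2-Eb1 was 0.92, 1.17 and 1.85 in ctl OPC libraries and 1.5, 1.08 and 1.41 in dKO OPC libraries. The dKO values lay within the ctl range. The difference of means, dKO minus ctl, was 0.016, with an SD of 0.48 in ctl and 0.22 in dKO libraries (n = 3 each; exact permutation test, two-sided p = 1.0). Without dKO replicate 2 the difference was 0.14. Over the 6 libraries this ratio spanned 0.93 on the log2 scale, while the log2 CPM of Cd74 itself spanned 3.45. For the single chains, the differences of the log2 ratio were -0.016 for H2-Aa, 0.20 for H2-Ab1 and -0.14 for H2-Eb1.

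Relative to H2-DMb1 and Ciita, Cd74 was higher in every dKO than in every ctl OPC library. The log2 ratio of Cd74 to H2-DMb1 was 0.35, 1.85 and 1.52 in ctl and 2.23, 2.61 and 3.05 in dKO libraries, which did not overlap. The difference of means was 1.39 (exact permutation test, two-sided p = 0.1, the smallest that 3 against 3 libraries allow). For Ciita the log2 ratio was 3.03 to 3.39 in ctl and 4.14 to 5.01 in dKO libraries, a difference of 1.48 with the same smallest p. For H2-DMa the groups overlapped, with a difference of 1.04 (exact permutation test, two-sided p = 0.3).

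**Figure D2:**
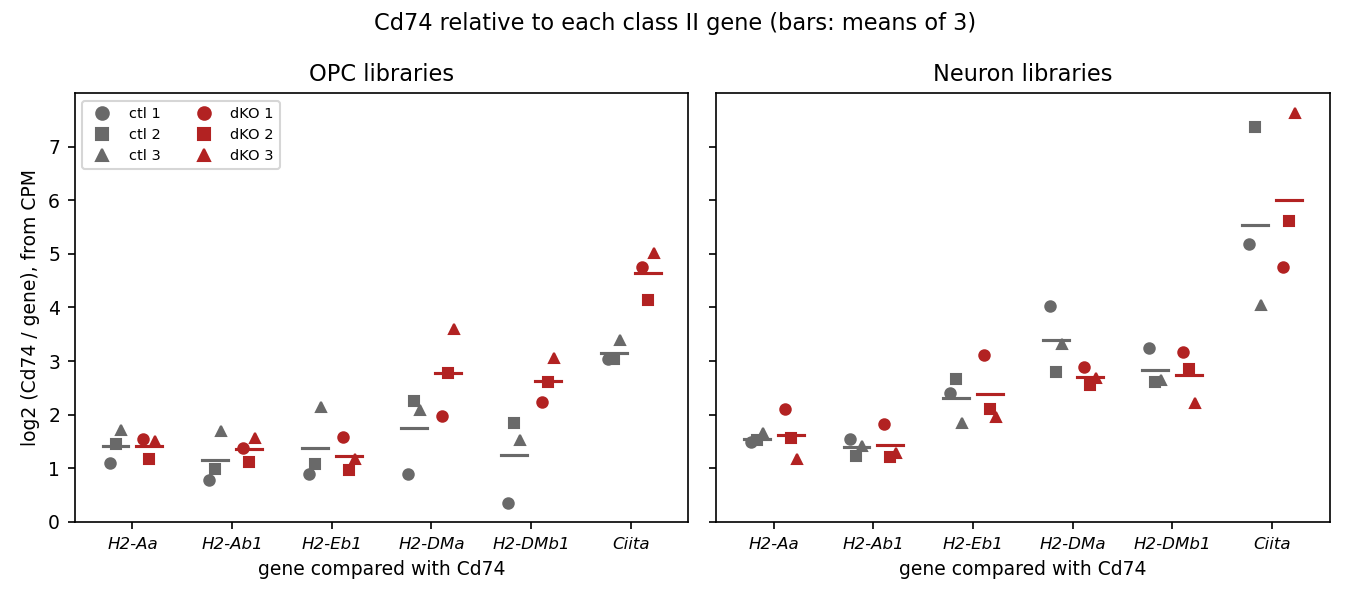
Log2 ratio of Cd74 to each other class II gene, from CPM with 0.5 added to each count, in the OPC libraries (left) and neuron libraries (right), with the bars at the mean of 3. In OPCs the ratios to H2-Aa, H2-Ab1 and H2-Eb1 overlap between ctl and dKO, while those to H2-DMb1 and Ciita are higher in every dKO library.

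In neurons, no difference of a class II gene passed the test, and 1 ctl library was far above the rest. All 7 genes had a negative log2 fold change, from -1.29 to -0.069 with a median of -1.01, against 0.0074 over all genes tested. In edgeR 0 of the 7 genes reached an unadjusted p under 0.05, where 4.04% of the 14352 genes tested were called as lower and 4.96% as higher. In DESeq2 1 of the 7, H2-Aa, reached it, where 4.91% of the same genes were called as lower. In edgeR without ctl replicate 2, Cd74 and the 3 chains were lower at that p, where 4.1% of all genes tested were, and without ctl replicate 3, H2-Aa and H2-Ab1 were, where 3.0% of all genes tested were. After adjustment, 0 of the 7 and 0.0% of all genes passed in edgeR. In DESeq2, 88 of all genes passed and 0 of the 7.

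Cd74 was at 133.9, 25.8 and 29.8 CPM in ctl and 43.3, 31.0 and 19.5 CPM in dKO neuron libraries. The value of ctl replicate 1 was the highest, and the other 5 libraries overlapped. The log2 fold change was -1.01 ± 0.61 (SE, adjusted p = 0.654 by edgeR). Without ctl replicate 1 it was 0.17 ± 0.32 (SE, adjusted p = 0.935 by edgeR), so the direction turned with a single library.

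The classical chains had the same high library. H2-Aa was at 48.1, 8.97 and 9.40 CPM in ctl and 10.04, 10.5 and 8.66 CPM in dKO neuron libraries. H2-Ab1 was at 45.8, 11.03 and 11.1 CPM in ctl and 12.3, 13.4 and 7.999 CPM in dKO neuron libraries, and H2-Eb1 at 25.3, 4.05 and 8.23 CPM and at 4.96, 7.21 and 4.98 CPM. Outside ctl replicate 1, no chain had groups that stood apart. Their log2 fold changes were -1.19, -1.01 and -1.13 with all libraries, and 0.082, 0.020 and -0.10 without ctl replicate 1.

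H2-DMb1 was at 14.1 CPM in ctl replicate 1 and at 4.20 to 4.83 CPM in the other 5 neuron libraries. H2-DMa was less uneven, at 8.20, 3.68 and 2.95 CPM in ctl and 5.83, 5.28 and 3.02 CPM in dKO libraries. Their log2 fold changes were -0.79 and -0.069 with all libraries, and -0.020 and 0.50 without ctl replicate 1. Ciita was uneven within both groups, with 56, 2 and 26 estimated counts in ctl and 25, 10 and 1 in dKO neuron libraries. Its log2 fold change was -1.29 ± 1.15 (SE, adjusted p = 0.757 by edgeR).

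**Figure D3:**
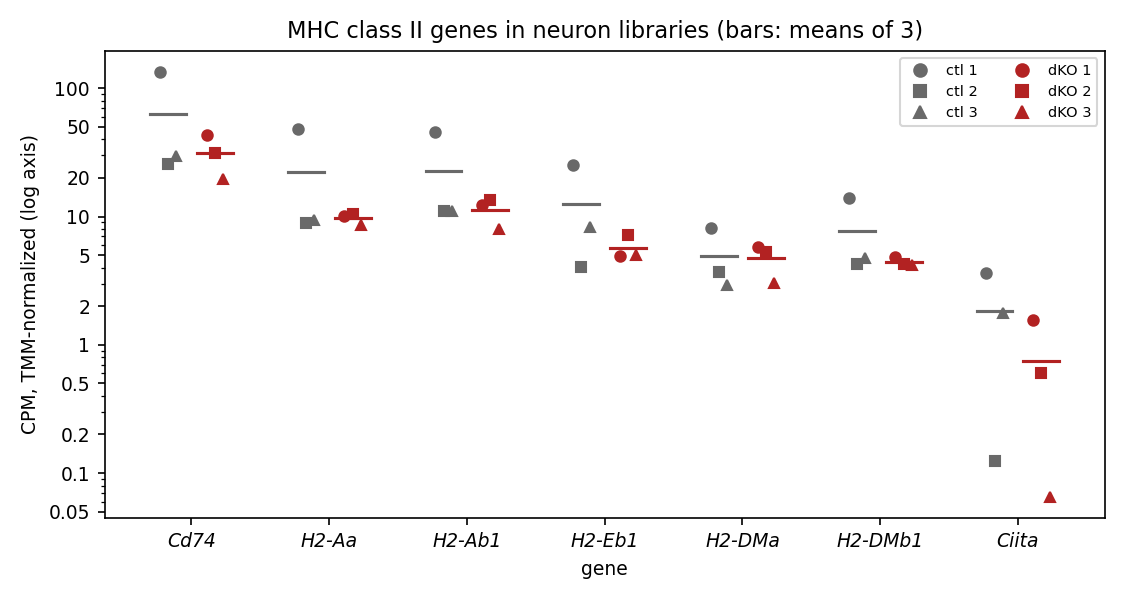
CPM (log axis) of the 7 class II genes in the 6 neuron libraries, with ctl in grey, dKO in red, the symbol giving the replicate and the bar the mean of 3. For each gene ctl replicate 1 is the highest library, at 133.9 CPM for Cd74, where the other 5 libraries lie between 19.5 and 43.3 CPM.

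The order of levels in neurons was given by FPKM within the neuron table, whose values were made in another way than those of the OPC table and were not compared with them. In dKO neuron libraries, Cd74 had the highest median FPKM, 30.6, followed by H2-Ab1 with 13.2 and H2-Aa with 11.6, whose ranges overlapped. H2-DMb1 with a median FPKM of 4.11 and H2-Eb1 with 3.56 also had overlapping ranges. H2-DMa followed with 2.25 and Ciita was lowest with 0.09. In ctl neuron libraries the median FPKM of Cd74 was 28.3 and that of Ciita 0.32.

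The ratio of Cd74 to the classical chains was examined in the same way in neurons. The log2 ratio of Cd74 to the mean of the 3 chains was 1.81, 1.80 and 1.64 in ctl and 2.35, 1.62 and 1.47 in dKO neuron libraries. The difference of means was 0.063 (exact permutation test, two-sided p = 1.0), and the value of ctl replicate 1 lay among those of the other libraries. The ratio was highest in dKO replicate 1. It spanned 0.88 on the log2 scale over the 6 libraries, where log2 CPM of Cd74 spanned 2.78. Over the 5 libraries other than ctl replicate 1 it also spanned 0.88, where log2 CPM of Cd74 spanned 1.15, so among these libraries the ratio varied nearly as much as Cd74. Without ctl replicate 1 the difference was 0.091. Over the 6 neuron libraries, whose groups overlap for Cd74, log2 CPM of Cd74 had a Pearson r of 0.95 with H2-Aa (exact permutation p = 0.00972, adjusted p = 0.0146 over 6 genes) and a Spearman rho of 0.943 (exact permutation p = 0.0167, adjusted p = 0.0334). The other 5 genes had r between 0.79 and 0.974, with adjusted p between 0.0146 and 0.0667 from exact permutation. Their rho was between 0.486 and 0.943, with adjusted p between 0.0334 and 0.356 from exact permutation. Without ctl replicate 1 and dKO replicate 3, the libraries farthest from the median of Cd74, r was 0.595 for H2-Aa, 0.455 for H2-Ab1 and -0.0088 for H2-Eb1, so these relations rest on those libraries. For H2-DMa, H2-DMb1 and Ciita r was then 0.706, 0.706 and 0.683.

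The neuron table separates transcripts, and Cd74 has 2 of them. The longer, which matches a GENCODE M21 transcript of 1410 bases and has an additional exon for a thyroglobulin-like domain, took 19.4%, 11.8% and 9.42% of the estimated Cd74 counts in ctl and 17.8%, 24.6% and 10.2% in dKO neuron libraries. The shorter, of 1224 bases, took the rest, and the shares of the groups overlapped, at 13.5% ± 5.21 in ctl and 17.6% ± 7.20 in dKO libraries (SD, n = 3 each). H2-Aa, H2-Ab1, H2-Eb1 and H2-DMb1 were each counted on 1 transcript. H2-DMa and Ciita were spread over 5 transcripts each, and the shares of the H2-DMa transcript NM_010386 ranged from 0% to 60.6%, so they were not compared.

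**Figure D4:**
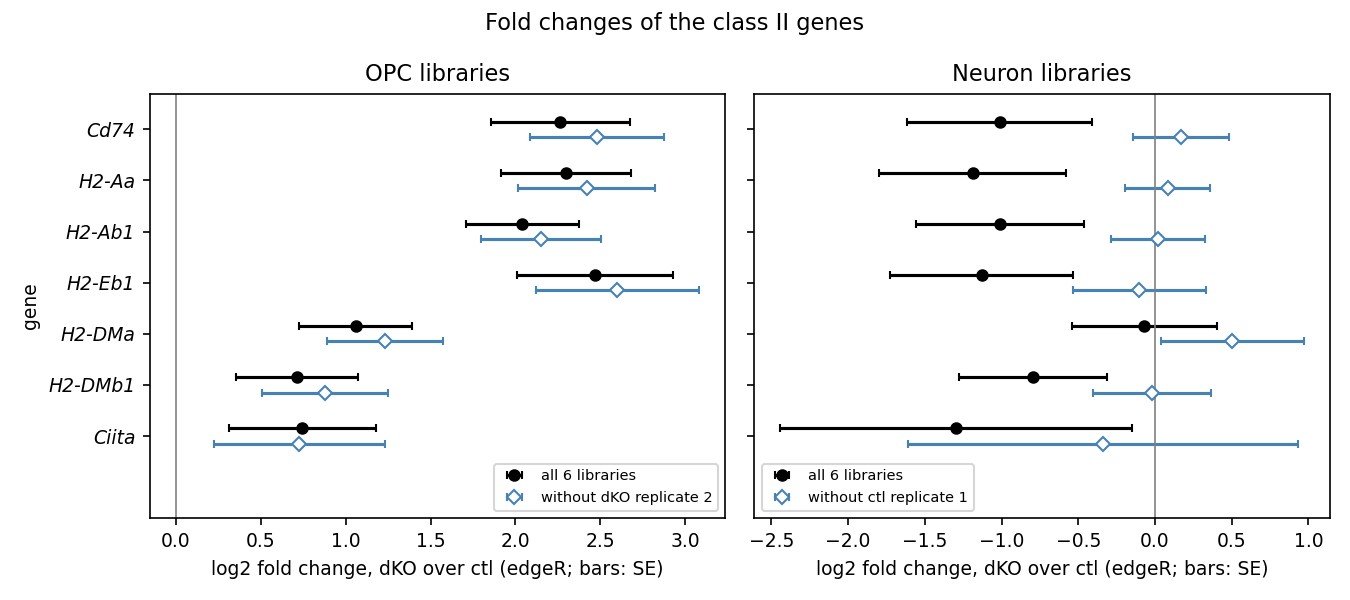
Log2 fold changes of dKO over ctl with their SE from edgeR for the 7 class II genes, with all 6 libraries (filled) and without OPC dKO replicate 2 (left) or neuron ctl replicate 1 (right; open). In OPCs Cd74 is at 2.27 and 2.48, and in neurons it is at -1.01 and 0.17.

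Markers of cells that are known to express class II genes were given beside them. In OPC libraries, the summed level of 14 microglia markers was 372, 377 and 417 CPM in ctl and 971, 436 and 1263 CPM in dKO libraries. Of the 14, 13 had an unadjusted edgeR p under 0.05, all higher in dKO, where 6.27% of all genes tested were. In dKO replicate 2 the microglia markers were thus close to the highest ctl library, while the 3 classical chains summed to 34.4 CPM there, against 8.07 to 9.27 CPM in ctl and 23.2 CPM in dKO replicate 1. The log2 ratio of the summed chains to the summed microglia markers was -5.42, -5.34 and -5.69 in ctl and -5.39, -3.67 and -4.21 in dKO libraries. In dKO replicate 1 this ratio lay within the ctl range, and in the other 2 dKO libraries it was above it, and the difference of means was 1.06 (exact permutation test, two-sided p = 0.2). Without dKO replicate 2, 13 of the 14 microglia markers passed in edgeR after adjustment, as did Cd74 and the 3 chains. Of all genes tested, 1.05% then passed as higher in dKO. The part of microglia in the class II values was not tested.

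Border-associated macrophage markers summed to 67.4, 58.7 and 67.6 CPM in ctl and 93.0, 70.2 and 135.8 CPM in dKO OPC libraries. Of these 9 markers, 3, Mrc1, Cd163 and F13a1, had an unadjusted edgeR p under 0.05, all higher in dKO, where 6.27% of all genes tested were. The log2 ratio of the summed chains to these markers was -3.07 to -2.66 in ctl and -2.00 to -0.99 in dKO libraries, without overlap (difference 1.55, exact permutation test, two-sided p = 0.1). Dendritic cell markers summed to 11.4 to 15.8 CPM in ctl and 14.4 to 35.3 CPM in dKO OPC libraries, of which Zbtb46 gave at least 8.72 CPM in each. Itgax, an integrin of dendritic cells that activated microglia also express, had 2, 2 and 1 reads in ctl and 17, 31 and 19 reads in dKO OPC libraries. Itgax was highest in dKO replicate 2, whereas Flt3, Zbtb46, Clec9a, Cd209a and Batf3 of the same list were lower there than in the other 2 dKO libraries, as were the summed microglia markers. Ccr7, also of that list and too low to be tested, was at 0.0, 0.156 and 0.49 CPM in dKO replicates 1, 2 and 3, so it did not share that order. Itgax, and likewise Cd209a with 3, 5 and 6 reads in ctl and 17, 14 and 18 reads in dKO libraries, reached the minimum mean count through the dKO libraries, so their test is not given beside the class II genes. B cell markers were near 0, with sums of 0.25, 0.55 and 0.78 CPM in ctl and 0.89, 0.93 and 1.53 CPM in dKO OPC libraries. These sums did not overlap, but 0 of the B cell markers reached the minimum count for testing. T cell markers were at 0.27 to 2.27 CPM, and monocyte and neutrophil markers at 0.41 to 3.02 CPM, both with overlapping groups. Astrocyte markers summed to 847 to 1477 CPM in ctl and to 1416, 4273 and 2272 CPM in dKO OPC libraries. Of these 6 markers, 5 were higher at an unadjusted edgeR p under 0.05, where 6.27% of all genes tested were. Endothelial markers summed to 1462, 1019 and 1478 CPM in ctl and to 1807, 832 and 2291 CPM in dKO OPC libraries, with 0 of the 6 at an unadjusted edgeR p under 0.05. Without dKO replicate 2, where Cd74 and the chains passed, 5 of the 6 endothelial markers were higher at an unadjusted p under 0.05 and 1, Ly6c1, passed after adjustment. Likewise, 5 of the 9 border-associated macrophage markers and 4 of the 6 astrocyte markers were higher at an unadjusted p under 0.05. Over all genes tested, 8.08% were then higher at that p and 1.05% passed as higher after adjustment. The part of the cells of these lists in the class II values was not tested.

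In neuron libraries, microglia markers summed to 2203, 483 and 1043 CPM in ctl and 473, 1252 and 725 CPM in dKO libraries. The library with the highest class II level, ctl replicate 1, was also the highest in microglia markers, and in border-associated macrophage markers, which summed to 65.8 CPM there and to 22.3 to 46.2 CPM in the others. It was also highest in astrocyte markers, with 857.7 CPM against 235.7 to 441.0 CPM, and in oligodendrocyte markers, with 3576 CPM against 479.5 to 1941 CPM. T cell markers, at 78.9 CPM in a range of 27.9 to 120.0 CPM, and monocyte and neutrophil markers, at 58.3 CPM in a range of 19.5 to 72.0 CPM, were not highest there. Dendritic cell markers were not highest in that library, with 88.5 CPM in a range of 49.3 to 129.5 CPM. The 3 chains summed to 119.2 CPM in ctl replicate 1 and to 21.6 to 31.1 CPM in the other neuron libraries. Relative to microglia markers, the chains had a log2 ratio of -4.21 in ctl replicate 1, within the range of -5.33 to -4.12 in the other libraries. The part of these cells in the class II values was not tested.

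**Figure D5:**
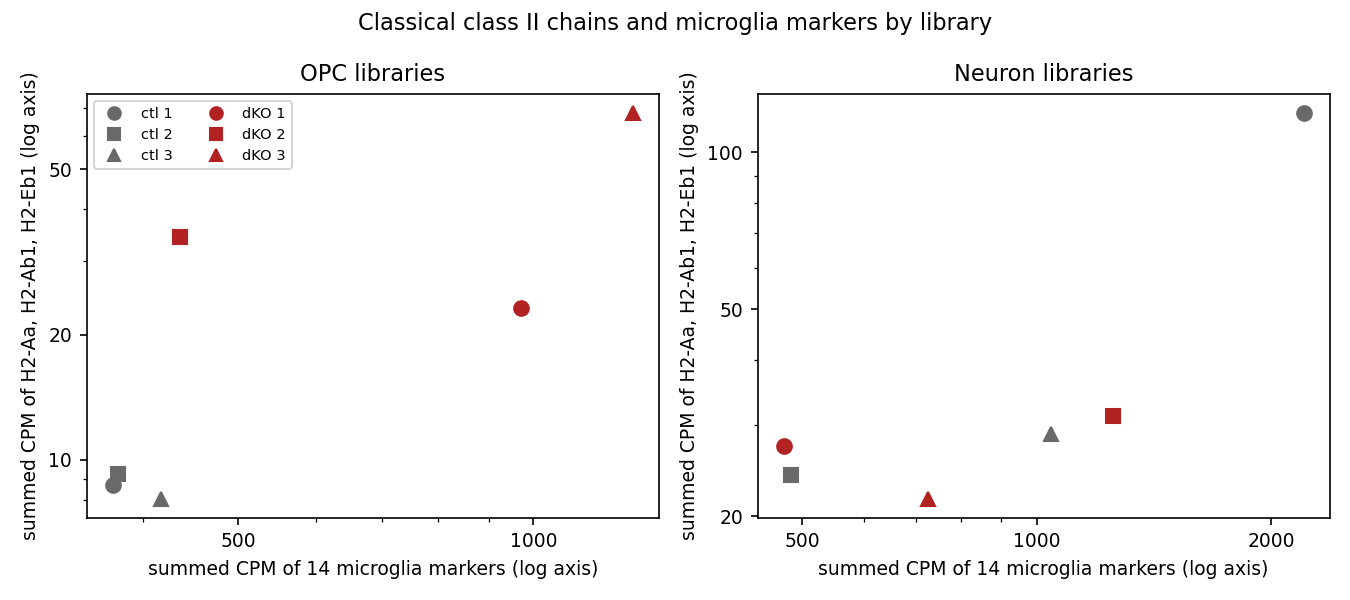
Summed CPM of H2-Aa, H2-Ab1 and H2-Eb1 against the summed CPM of 14 microglia markers (both log axes) in OPC libraries (left) and neuron libraries (right), 1 point per library. OPC dKO replicate 2 lies at 436 CPM of microglia markers and 34.4 CPM of the chains, and neuron ctl replicate 1 at 2203 and 119.2 CPM.

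The other genes of the pathway were taken from a list of 31 genes, of which 27 were tested in each cell type. In OPCs, 6 of the 27 had an unadjusted p under 0.05 as higher in dKO and 0 as lower, where 6.27% of all genes tested were higher and 5.27% lower, and 0 passed after adjustment. The median log2 fold change of all 27 was 0.13. Without dKO replicate 2, 8 of the 27 were higher at an unadjusted p under 0.05, where 8.08% of all genes tested were, and 2, Ctss and Ifngr1, passed after adjustment. Of the 26 genes other than H2-Ob, which had few reads, 7 were higher at that p without dKO replicate 2.

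Among the other class II chains of the list, H2-Ob had 7, 8 and 12 reads in ctl and 17, 5 and 36 reads in dKO OPC libraries, and H2-DMb2, H2-Oa and H2-Eb2 were below the minimum count. H2-Ob reached the minimum through the dKO libraries, so its test is not given. The proteases and the costimulatory genes held the largest of these differences. Ctss, the cathepsin that trims Cd74 in antigen-presenting cells, was at 32.4, 28.7 and 37.3 CPM in ctl and 101.3, 45.5 and 117.0 CPM in dKO OPC libraries. It was lowest in dKO replicate 2 among the dKO libraries, as were the microglia markers, and its log2 fold change was 1.42 ± 0.31 (SE, adjusted p = 0.246 by edgeR). Cd86, a costimulatory ligand for T cells, was at 0.75, 1.91 and 2.03 CPM in ctl and 4.25, 2.80 and 7.77 CPM in dKO OPC libraries, with a log2 fold change of 1.67 ± 0.49 (SE, adjusted p = 0.310 by edgeR). Ctsl, Lgmn, Ifi30 and Sppl2a, the other enzymes of the list, had log2 fold changes between -0.066 and 0.24, and Cd80 and Cd40 of 0.94 and -0.24, each with an unadjusted p above 0.05. Marchf1, a ubiquitin ligase that removes class II molecules from the surface, differed by 0.45 on the log2 scale (adjusted p = 0.341 by edgeR), and Marchf8 by -0.27.

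The transcription factors of the X and Y boxes differed little between the groups. Rfx5, Rfxap, Rfxank, Nfya, Nfyb, Nfyc and Creb1 had log2 fold changes between -0.21 and 0.13 in OPCs, and 0 of the 7 had an unadjusted p under 0.05. Of the interferon-gamma genes, the receptor chains Ifngr1 and Ifngr2 and the factor Irf1 had log2 fold changes of 0.48, 0.54 and 0.45 in OPCs, with unadjusted p under 0.05 and adjusted p of 0.433, 0.348 and 0.348 by edgeR. Jak1, Jak2 and Socs1 had log2 fold changes of 0.22, -0.24 and 0.31. The partners of Cd74, which are its ligand Mif and the coreceptors Cd44 and Cxcr4, had log2 fold changes between -0.060 and 0.22, and Cxcr2 was too low to be tested.

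In neurons, 4 of the 27 pathway genes had an unadjusted p under 0.05, all lower in dKO, where 4.04% of all genes tested were lower, and 0 passed after adjustment in edgeR. The median log2 fold change of the 27 was -0.13. Endothelial markers were also lower in every dKO neuron library, at 6238 to 10940 CPM in sum, than in the ctl libraries, at 12210 to 14240 CPM, and their part in the pathway values was not tested. Irf1 was at 195.1, 107.4 and 140.0 CPM in ctl and 62.4, 92.7 and 73.0 CPM in dKO neuron libraries, with a log2 fold change of -0.96 ± 0.24 (SE, adjusted p = 0.521 by edgeR) and of -0.70 without ctl replicate 1. Its groups did not overlap, and it stayed at an unadjusted p under 0.05 without ctl replicate 1, whereas Cd74 and the chains then had no common direction. The other 3 genes were Cd40, Ifngr1 and Sppl2a, with log2 fold changes of -0.58, -0.42 and -0.38, and without ctl replicate 1 Cd40 was the one of them still at an unadjusted p under 0.05.

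Outside the 7 class II genes, the genes most like the classical chains were named by the Pearson r of log2 CPM with the mean of H2-Aa, H2-Ab1 and H2-Eb1 over the 6 libraries of a cell type. In OPCs these were Mmgt2 (r = 0.992), Spata25 (r = 0.992), Celf2 (r = 0.989), Mrc1 (r = 0.982) and Aox3 (r = 0.981). Cd74 had r = 0.967 and Ciita, H2-DMa and H2-DMb1 had r = 0.860, 0.749 and 0.729. In neurons the genes were Gm12407 (r = 0.991), Cst3 (r = 0.988), Cd14 (r = 0.988), Tmem219 (r = 0.974) and Ccl19 (r = 0.974), each highest in ctl replicate 1. H2-DMb1, Cd74, H2-DMa and Ciita had r = 0.979, 0.950, 0.765 and 0.699 in neurons. These values describe 6 libraries that share the difference between groups in OPCs and the single high library in neurons.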

How the data were processed

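The OPC table deposited by the authors holds read counts without normalization and FPKM values per Ensembl gene, made with HISAT2 and featureCounts according to their methods, which name GRCm38, whereas the submitters' processing notes name mm39. Of 28720 gene IDs shared with the GRCm38 annotation (GENCODE M21), 1.97% had the same interval, so the deposited coordinates are not on GRCm38. Gene intervals are printed as deposited and promoter positions on GRCm38.p6, without conversion. The neuron table deposited by the authors holds estimated counts and FPKM values per RefSeq transcript, by a program not given in the sources used here. The methods name featureCounts without setting the neuron libraries apart, and name no program for estimates per transcript. The estimated counts were summed per gene and rounded. Columns with the authors' own fold changes and p-values were not used.

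Libraries were grouped by their titles. In each cell type, genes whose TMM-normalized counts averaged 10 or more were tested with edgeR 4.0.16 (quasi-likelihood test, genotype only, R 4.3.3, Benjamini-Hochberg adjustment, threshold 0.05). SE is the log2 fold change over the root of its F statistic. Ratios used log2 CPM with 0.5 added to each count and two-sided exact permutation tests (scipy 1.17.1), in which 3 against 3 libraries cannot give a p under 0.1. Alternatives were DESeq2 1.42.0, other size factors, no filter, a replicate block, an added count of 2 and each library left out. The script was tested on simulated data. The genes named are the 7 class II genes, a pathway list, marker lists and the 5 genes most like the classical chains. The genes and lists were chosen with earlier results of these data known. Same-numbered libraries did not deviate together in all pairs. The p-values measure the spread between pools of 2 mice. One gene of the pathway list is not reported here and was left out of its counts.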

Additional observations from a re-analysis of the deposited data

Results flagged for a closer look

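Irf1, a factor that responds to interferon, was higher in every dKO than in every ctl OPC library, with a log2 fold change of 0.449, and lower in every dKO than in every ctl neuron library, with -0.955. Ctsl, a lysosomal cathepsin, had log2 fold changes of 0.238 in OPCs and -0.207 in neurons, again without overlap of the groups in either cell type. The neuron groups of Ctsl nearly touched, at 244.6 CPM in the lowest ctl and 243.3 CPM in the highest dKO library. Its unadjusted edgeR p was 0.0507 in OPCs and 0.203 in neurons. In OPCs, 7.41% of all genes tested had every dKO library above every ctl library. The share of genes separated downward in neurons was not counted. Without neuron ctl replicate 1, the log2 fold change in neurons was -0.70 for Irf1 and -0.080 for Ctsl. Itgax, an integrin, had 2, 2 and 1 reads in ctl and 17, 31 and 19 reads in dKO OPC libraries (mean 22.3 in dKO), and 101, 31 and 143 estimated counts in ctl and 5, 5 and 0 in dKO neuron libraries (mean 3.33 in dKO). Cd209a, a lectin of dendritic cells, had 3 to 6 reads in ctl and 14 to 18 in dKO OPC libraries (mean 16.3 in dKO), and 16 to 36 estimated counts in ctl and 5 to 12 in dKO neuron libraries (mean 7.67 in dKO). The group with the lower level holds few reads for both genes, so no fold change is given. The differences between the cell types were not tested, since the tables were counted in different ways, and the adjusted p of Irf1 and Ctsl was above 0.05 in edgeR in both cell types.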

How the results depend on the processing

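In OPCs, 1 gene passed at an adjusted p of 0.05 in edgeR, 293 with DESeq2, 87 without a filter, 27 with the replicate block, and 1 to 199 when each library was left out, the most without dKO replicate 2. Of the 7 class II genes, 0 passed in edgeR, 4 with DESeq2, 4 without a filter, 2 (Cd74 and H2-Aa) with the block and 0 to 4 with a library left out. The log2 fold change of Cd74 in OPCs was 2.26 with DESeq2, 2.29 without a filter and 2.15 with the block, where it passed, and 1.64 to 2.52 with each library left out. In neurons, 0 genes passed in edgeR, 88 with DESeq2 and 0 to 0 with a library left out. The number of the 7 genes at an unadjusted p under 0.05 was 0, with 1 in DESeq2 and 0 to 4 with a library left out. Of the 7, 4 were lower at that p without ctl replicate 2 (4.1% of all genes tested) and 2 without ctl replicate 3 (3.0%). Leaving out each neuron library gave log2 fold changes of -1.39 to 0.17 for Cd74, -1.56 to 0.082 for H2-Aa, -1.34 to 0.020 for H2-Ab1 and -0.33 to 0.50 for H2-DMa, all turned by leaving out ctl replicate 1, and for H2-DMa also dKO replicate 3. With the block, H2-DMa was at 0.016 in neurons. The correlations of same-numbered deviations were -0.10, 0.14 and 0.11 in OPCs and 0.17, -0.085 and -0.084 in neurons. The best match bore the same number for replicates 2 and 3 in OPCs and replicate 1 in neurons, and another number otherwise. These few values do not decide whether the replicate numbers pair the libraries. The difference of the Cd74 to chain ratio changed by less than the pooled SD within groups, 0.374 in OPCs and 0.338 in neurons, in every alternative run, at -0.18 to 0.28 in OPCs and -0.21 to 0.24 in neurons with a library left out. No OPC fold change of the 7 genes changed direction in any alternative run, and the causes of these changes were not tested. Few reads limit Ciita, with 12 to 30 per OPC library.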
